A study of Mus musculus with 15 samples.

Results

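Fpr1 and Fpr2 encode formyl peptide receptors, which lie side by side on mouse chromosome 17. They are 2 of the 22208 protein-coding genes measured here, and they were chosen by measured values: a gain of active histone marks at both gene starts, and a window about 12 kb downstream of the Fpr1 start that gains H3K27Ac late. These same values are therefore given as a description. The libraries come from ChIP-seq on C10 cells, a derivative of the mouse HAFTL pre-B cell line that carries a fusion of C/EBPα with the estrogen receptor, tagged with GFP (C/EBPαER-GFP). β-estradiol (100 nM in the labels) moves the fusion protein into the nucleus and, together with IL-3 and CSF-1, turns the cells macrophage-like. The methods text gives this dose in another unit, µM, so its size is uncertain. H3K4Me1, H3K27Ac and H3K27Me3 were mapped at 0, 3, 12, 24 and 48 hr post-induction (hpi), and the labels give this C10 line for all 15 groups. The labels mention ethanol, the solvent, for control cells but do not say whether the 0 hpi cells received it. Each mark and time had 1 library, so no difference could be set against replicate error, and all intervals below are 95% intervals for counting error only.

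Formyl peptide receptors are G protein-coupled receptors of neutrophils and macrophages that bind peptides beginning with formyl-methionine, as released by bacteria and damaged mitochondria, and steer the cell toward their source. Fpr1 is the high-affinity receptor for such peptides. Fpr2 also binds host ligands such as annexin A1, cathelicidin and serum amyloid A. Of the marks, H3K4Me1 is found at poised and active enhancers, H3K27Ac at active enhancers and promoters, and H3K27Me3 at regions repressed by Polycomb.

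In mm9, Fpr1 (ENSMUSG00000045551.7) occupies chr17:18013435-18020904 on the minus strand and Fpr2 (ENSMUSG00000052270.7) chr17:18024788-18030916 on the plus strand. The genes point away from each other and their starts are 3884 bp apart. Fpr3 is annotated from a start 28 bp inside Fpr2, so the values at the Fpr2 and Fpr3 starts come from almost the same tags. The window that gains H3K27Ac, chr17:18007001-18010000, is intergenic. Its centre lies 12403 bp downstream of the Fpr1 start, and it begins 3435 bp beyond the end of Fpr1, between that gene and Has1, which encodes a hyaluronan synthase. Below it is called the +12 kb window, distances are counted from the Fpr1 start, and positive distances run downstream of Fpr1 and negative ones toward Fpr2.

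To show what lies under the strongest acetylation, the 300 bp with most H3K27Ac tags at 48 hpi in the +12 kb window and inside Fpr2 were read from mm9, together with the 250 bp before each gene start. Matches to motifs of C/EBP (TTGCNNAA), PU.1 (AGGAAGT) and AP-1 (TGANTCA), sought on both strands, are in capitals.
+12 kb window, chr17:18009101-18009400, plus strand: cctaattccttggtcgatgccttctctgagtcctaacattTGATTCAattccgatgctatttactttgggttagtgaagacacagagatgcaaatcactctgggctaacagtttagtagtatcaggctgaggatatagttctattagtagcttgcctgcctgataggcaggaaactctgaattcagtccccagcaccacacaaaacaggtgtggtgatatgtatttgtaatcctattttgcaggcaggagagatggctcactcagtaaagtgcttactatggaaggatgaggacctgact
Inside Fpr2, chr17:18026551-18026850, plus strand: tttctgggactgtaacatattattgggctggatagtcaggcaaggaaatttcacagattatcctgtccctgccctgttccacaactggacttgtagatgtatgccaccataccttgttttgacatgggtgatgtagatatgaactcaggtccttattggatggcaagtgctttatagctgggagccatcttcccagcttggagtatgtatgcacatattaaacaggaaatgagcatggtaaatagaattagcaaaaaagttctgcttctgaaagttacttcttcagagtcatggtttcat
Before Fpr1, chr17:18020905-18021154, minus strand: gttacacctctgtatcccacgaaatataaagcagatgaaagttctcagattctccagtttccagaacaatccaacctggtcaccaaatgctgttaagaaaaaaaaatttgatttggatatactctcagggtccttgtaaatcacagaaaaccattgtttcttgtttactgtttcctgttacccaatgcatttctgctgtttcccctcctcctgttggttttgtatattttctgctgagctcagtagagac
Before Fpr2, chr17:18024538-18024787, plus strand: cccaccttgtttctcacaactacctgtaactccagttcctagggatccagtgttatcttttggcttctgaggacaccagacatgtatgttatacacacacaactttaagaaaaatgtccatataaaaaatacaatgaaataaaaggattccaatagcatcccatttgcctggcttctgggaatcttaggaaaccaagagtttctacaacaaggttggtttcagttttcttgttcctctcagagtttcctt

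None of these 4 stretches overlaps an annotated exon. The only match is the AP-1 motif TGATTCA at bases 41 to 47 of the +12 kb stretch, and 8.84% of all 300 bp windows of the genome hold such a match. Neither promoter holds any of the 3 motifs, which stand in 9.17% (C/EBP), 7.18% (PU.1) and 6.0% (AP-1) of the stretches of 250 bp before protein-coding genes. G and C made up 38.8% of each promoter stretch. Over its full 3 kb, the +12 kb window holds 3 AP-1 matches and no match to C/EBP or PU.1. For comparison, 60.1% of all 3 kb windows hold an AP-1 match, 76.1% a C/EBP match and 52.6% a PU.1 match. A match is a string of letters and not a bound site, and the lack of one says nothing about binding by these factors.

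Tags were counted in 3 kb stretches after thinning the libraries to 15.22 M tags for H3K27Ac, 10.91 M for H3K4Me1 and 15.34 M for H3K27Me3, from 11.04 to 31.56 M deposited tags. A stretch held on average 18.7, 13.4 and 18.8 tags of these marks. The pre-B label was checked on H3K27Ac at marker gene starts: 7 of 7 pre-B markers were at least 2-fold lower at 48 hpi (median log2 change -1.50) and 7 of 7 macrophage markers at least 2-fold higher (median 2.78), against a median of -0.14 over all starts, of which 9.34% were lower and 5.37% higher. The marker lists were drawn up with earlier results of these data known, so these counts are no independent check of the label. In bulk libraries, a larger share of marked cells and more mark per cell cannot be told apart. The H3K27Ac libraries of 0 and 3 hpi stood apart from the rest. Over 80 kb around Adam6b, in the immunoglobulin heavy chain locus, they held 440 and 358 tags, while the other 13 libraries held 0 to 4. The labels do not account for this difference. Whether both libraries came from the same subline as the others is not known, and if they did not, every H3K27Ac change from 0 hpi also holds a difference between cells. Its part in the results was not tested. H3K27Ac changes are therefore also given from 12 to 48 hpi, which leaves both libraries out. Over that stretch of time, 4 of 7 pre-B markers were at least 2-fold lower (median log2 change -1.03) and 2 of 7 macrophage markers at least 2-fold higher (median 0.60), where the median over all starts was -0.15 and 4.68% of them were lower and 2.35% higher.

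The +12 kb window went from almost no H3K27Ac to one of the strongest gains in the genome, and most of the gain came after 12 hpi. Tags numbered 2 before induction, 14 after 3 hr, 68 after 12 hr, 366 after 24 hr and 803 after 48 hr. Every step upward exceeded counting error. The last value is 43.0 times the genome mean, and the log2 change from 0 to 48 hpi was 6.85 (interval 6.04 to 7.27). From 12 to 48 hpi alone, it was 3.47 (3.13 to 3.82). Of 831499 windows of 3 kb, 5 had a larger change from 0 to 48 hpi, 282 had a larger one from 12 to 48 hpi and 760 had more tags at 48 hpi. The +12 kb window was chosen for its gain and centred on its highest bin, while the compared windows lie on a fixed grid. Both favour its ranks, which are a description only. The window of the span grid at 13.0 kb, not centred in this way, went from 3 to 795 tags (log2 change 6.64).

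H3K4Me1, the mark of poised enhancers, rose in the same window, which held 11, 8, 97, 128 and 173 H3K4Me1 tags at the 5 times. Its log2 change was 3.48 (2.81 to 4.12), which 1065 windows exceeded. At 12 hpi, 53.1% of the H3K4Me1 rise (41.8% to 66.3%) but 8.24% of the H3K27Ac rise (6.34% to 10.5%) had taken place. The window was chosen for a late gain of H3K27Ac, so a low H3K27Ac share at 12 hpi is partly set by that choice, and these shares are a description that supports no order of the marks. They were 57.4% and 7.87% after scaling to background bins, which were enriched at no time, and 41.5% and 6.93% after scaling to bins enriched at all 5 times. At 24 hpi, the shares were 72.2% (59.1% to 87.2%) for H3K4Me1 and 45.4% (40.9% to 50.4%) for H3K27Ac. After scaling to background bins they were 77.8% and 70.7%, with overlapping intervals.

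**Figure D1:**
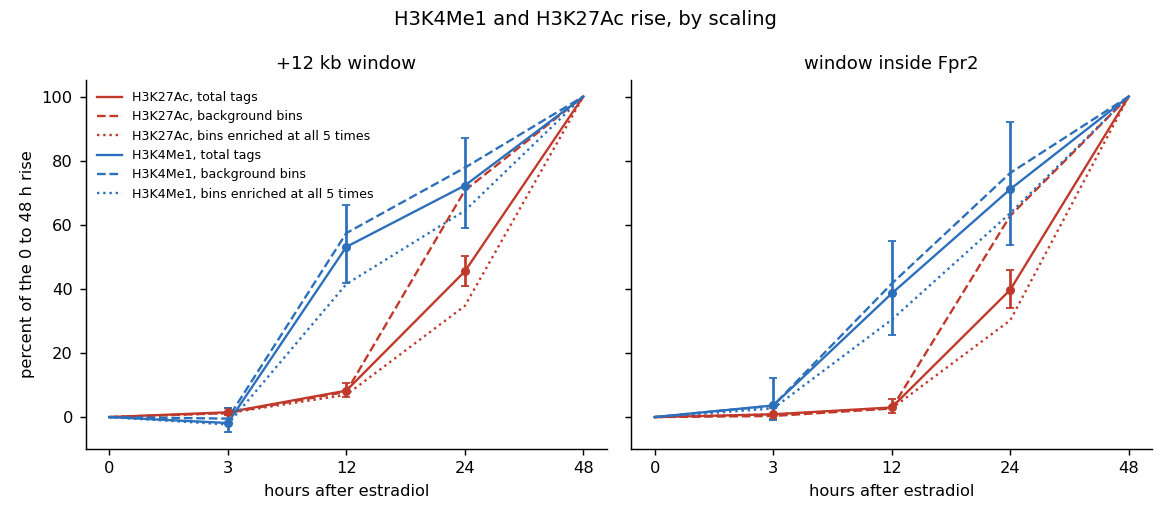
Percent of the rise from 0 to 48 hpi (vertical axis) reached at each time (horizontal axis, hours) by H3K27Ac in red and H3K4Me1 in blue, in the +12 kb window and in a window inside Fpr2. Line styles are 3 ways of scaling the libraries, points with bars are total-tag values with 95% counting intervals, and at 12 hpi the values in the +12 kb window, chosen for late H3K27Ac, are 53.1% in blue and 8.24% in red.

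H3K27Me3 in the +12 kb window was 46, 39, 58, 42 and 37 tags at the 5 times. The interval of the change from 0 to 48 hpi held 0 (log2 change -0.28, -0.87 to 0.30), while that from 12 to 48 hpi lay below 0 (-0.58, -1.15 to -0.03), and 2.44 times the genome mean at 0 hpi became 1.96 times at 48 hpi. The windows beside it held more H3K27Me3 at 48 than at 0 hpi. The window centred at 9.97 kb rose from 29 to 63 H3K27Me3 tags and the one at 15.97 kb went from 32 to 63. At 48 hpi, the grid window centred at 13.0 kb held 40, fewer than any other window between 34.0 kb and -14.0 kb. This range was set after the values were seen. Beyond it, the window at -17.0 kb held 38 and those at 40.0 and 43.0 kb held 18 and 16.

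In bins of 200 bp, the H3K27Ac gain at 48 hpi was not 1 smooth hill. Local highs of 50, 87, 99 and 103 tags lay at -1300, -500, -100 and 700 bp from the window's centre. Some differ little from their neighbours, as the bin at -1500 bp held 44. Tags have no strand and were placed at their own middle, so the positions of highs and dips are approximate. Between the last pair, the signal dipped to 41 tags at 300 bp. H3K4Me1 was highest at 900 bp, with 23 tags per bin.

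**Figure D2:**
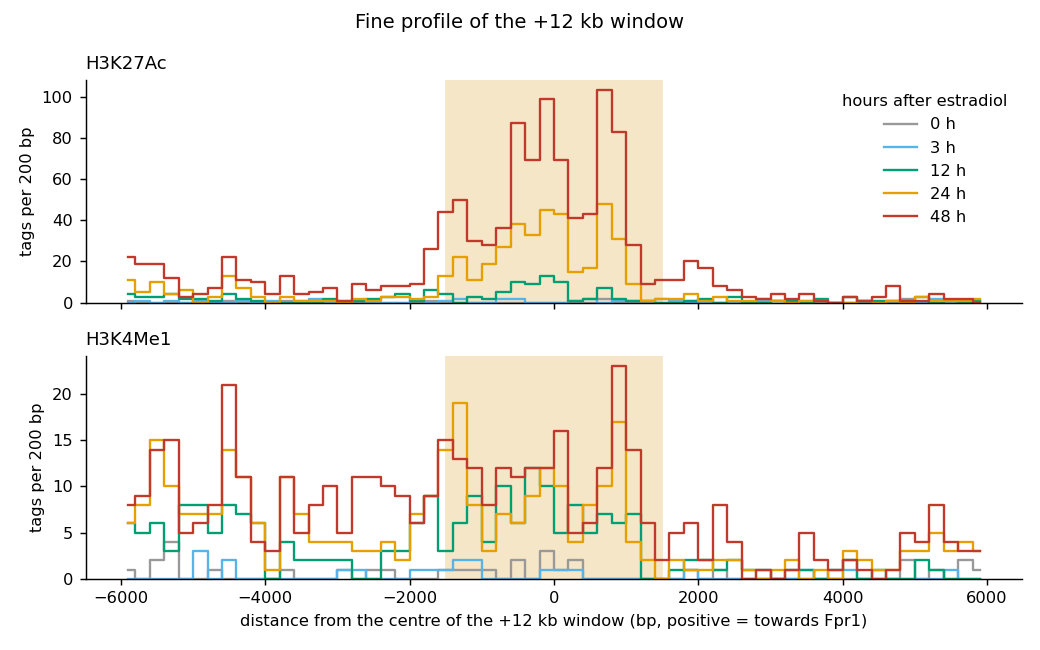
Tags per 200 bp (vertical axes) of H3K27Ac and H3K4Me1 against distance in bp from the centre of the +12 kb window, positive toward Fpr1, with a line for each time and the window shaded. The 48 hpi H3K27Ac line peaks at 99 and 103 tags on either side of a dip to 41.

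The 3 kb around the Fpr2 start ended with more H3K27Ac than the 3 kb around the Fpr1 start. The Fpr2 stretch covers part of a stronger site inside Fpr2, described below, whose part in this difference was not tested. Tags in the 3 kb around the Fpr2 start were 3 before induction and then 8, 19, 37 and 96 in the order of the times. The log2 change was 3.66 (2.82 to 4.20), and 2.07 (1.46 to 2.69) from 12 to 48 hpi. Of 22208 protein-coding starts, 99 had a larger change from 0 to 48 hpi and 68 a larger one from 12 to 48 hpi, but 8747 had more H3K27Ac at 48 hpi. The final level was thus a middling one, reached from almost nothing.

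The Fpr1 start ended lower. It held 1 H3K27Ac tag before induction, then 6, 9 and 15, and finally 35 after 48 hr, which is 1.87 times the genome mean. Its log2 change was 2.74 (1.81 to 3.03), and 1.51 (0.70 to 2.26) from 12 to 48 hpi, which 179 starts exceeded. At no time did an enriched H3K27Ac region overlap the 3 kb around the Fpr1 start. The intervals of the 48 hpi counts, 24.4 to 48.7 tags at Fpr1 and 77.8 to 117 at Fpr2, did not overlap.

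H3K4Me1 rose at both starts to alike levels. At the Fpr1 start, it was 2, 6, 6, 31 and 61 tags at the 5 times (log2 change 3.24, 2.36 to 3.69). At the Fpr2 start, it was 1, 5, 23, 34 and 64 tags (3.52, 2.64 to 3.80). Fpr2 was ahead at 12 hpi, when the interval of its share of the rise was 21.6% to 53.2% against 0.34% to 18.7% at Fpr1. Of all protein-coding starts, 39 had a larger H3K4Me1 change than Fpr1 and 21 a larger one than Fpr2. Both genes were chosen for gains of active marks at their starts, which favours these ranks and those in H3K27Ac. The ranks are a description only.

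H3K27Me3 did not leave the gene starts. The Fpr1 start held 50, 56, 52, 80 and 87 tags at the 5 times (log2 change 0.74, 0.26 to 1.23), and the Fpr2 start held 34, 37, 46, 59 and 64 (0.82, 0.26 to 1.39). Both intervals lie above 0 and neither change reached 2-fold. The changes ranged from 0.58 to 0.99 at Fpr1 and from 0.58 to 0.97 at Fpr2 over 7 other ways of counting and scaling. At 48 hpi, 159 of the 22208 starts had more H3K27Me3 than Fpr1 and 903 had more than Fpr2.

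The strongest acetylation near Fpr2 lay inside the gene. A 3 kb window centred 1713 bp after the Fpr2 start, chosen after its values were seen, held 10, 14, 24, 195 and 476 H3K27Ac tags at the 5 times, 25.5 times the genome mean at the last. Its log2 change was 5.0 (4.35 to 5.63), and 4.05 (3.54 to 4.58) from 12 to 48 hpi. H3K4Me1 there was 3, 6, 35, 62 and 86 tags. At 12 hpi, H3K4Me1 stood at 38.6% of its rise (25.8% to 55.0%) and H3K27Ac at 3.00% (1.15% to 5.52%). The window was chosen for its high H3K27Ac at 48 hpi, which lowers the H3K27Ac share, so this is no second instance of an order. H3K27Me3 went from 32 to 52 tags (log2 change 0.62, 0.03 to 1.22). The stretch at the Fpr2 start covers part of this window. With 6 kb around the Fpr2 start, the H3K27Ac change became 5.01.

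**Figure D3:**
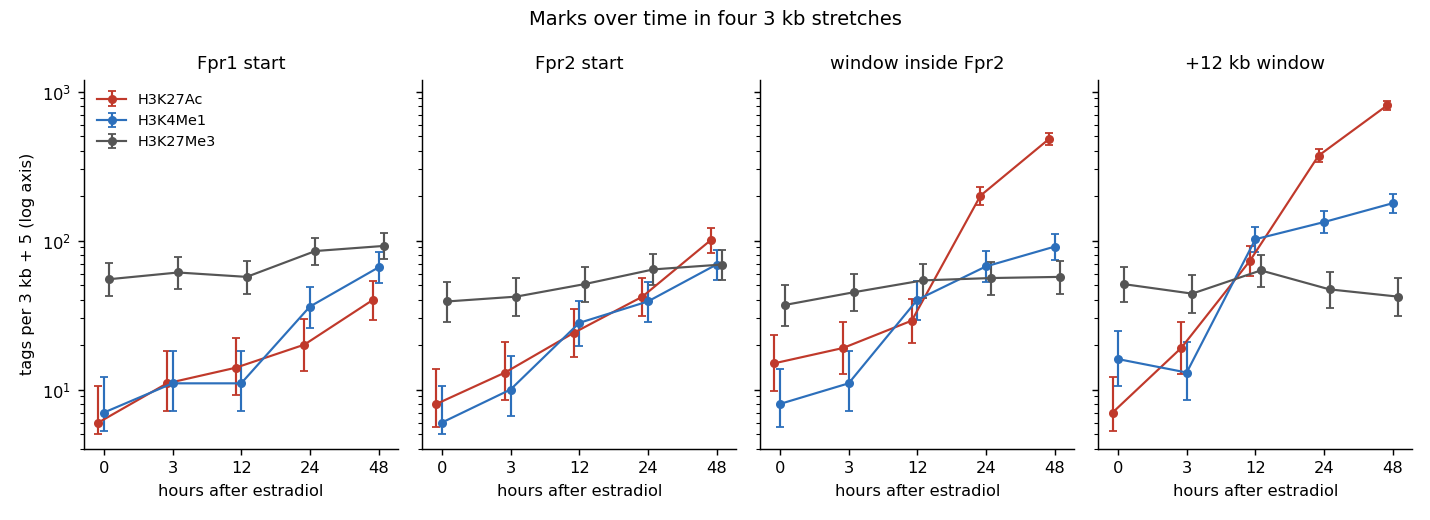
Tags per 3 kb with 5 added (vertical log axis) against hours after estradiol at the Fpr1 start, the Fpr2 start, the window inside Fpr2 and the +12 kb window. Points are the single libraries of H3K27Ac (red), H3K4Me1 (blue) and H3K27Me3 (grey) and bars are 95% Poisson intervals, and H3K27Ac at 48 hpi ranges from 35 tags at the Fpr1 start to 803 in the +12 kb window.

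To see how far the change reached, the marks were followed over chr17:17913435-18130916, from 100 kb before to 100 kb after both genes, in 72 windows of 3 kb. In 23 windows, H3K27Ac was at least 2-fold above its 0 hpi level by 48 hpi, that is 31.9%, against 7.37% of all windows in the genome. It was lower in 1, at -29.0 kb, which went from 5 tags to 0 (5.04% of windows were lower in the genome). From 12 to 48 hpi, 16 of the 72 windows were higher and 1 lower, against 3.81% and 3.86% in the genome. The locus was chosen for gains of active marks, so these excesses over the genome are partly set by that choice. Neighbouring windows are also not separate instances, and the shares are a description only. Of the 23 windows, 16 followed each other without a gap from 28.0 kb to -17.0 kb, a run of 48 kb that covers both genes. This run is measured from the 0 hpi library that stood apart. From 12 to 48 hpi, it was broken, since the windows at 6.97, -14.0 and -17.0 kb stayed below 2-fold (log2 changes 0.96, 0.82 and 0.19). Summed over the 72 windows, H3K27Ac was 439, 589, 801, 1454 and 2933 tags at the 5 times.

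H3K4Me1 was at least 2-fold higher in 18 windows (25% against 5.34% in the genome) and lower in 2 (9.45% in the genome). The share of higher windows is, as for H3K27Ac, partly set by the choice of the locus. Of the higher windows, 13 formed a run from 24.97 kb to -11.0 kb. Its sums were 384, 351, 604, 1074 and 1552 tags. From -23.0 kb on, over most of Fpr3 and beyond, the windows held at most 12 H3K27Ac tags at any time except 1 with 13.

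H3K27Me3 was at least 2-fold higher in 6 windows (8.33% against 1.21% in the genome) and lower in 0 (2.37%). The count of higher windows was 12 after scaling to background bins and 3 after scaling to bins enriched at all 5 times. They included 3 in a row over the Fpr1 gene body and the stretch after it, at 9.97, 6.97 and 3.97 kb, where the window at 6.97 kb went from 23 to 72 tags and that at 3.97 kb from 30 to 87. The windows at 6.97 and 3.97 kb also gained H3K27Ac, from 4 to 32 and from 8 to 30 tags. From 12 to 48 hpi, they went from 14 to 32 (log2 change 0.96, 0.20 to 1.70) and from 10 to 30 (1.22, 0.41 to 1.99). The sums over all windows were 2018, 2017, 2355, 2683 and 2955 tags.

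**Figure D4:**
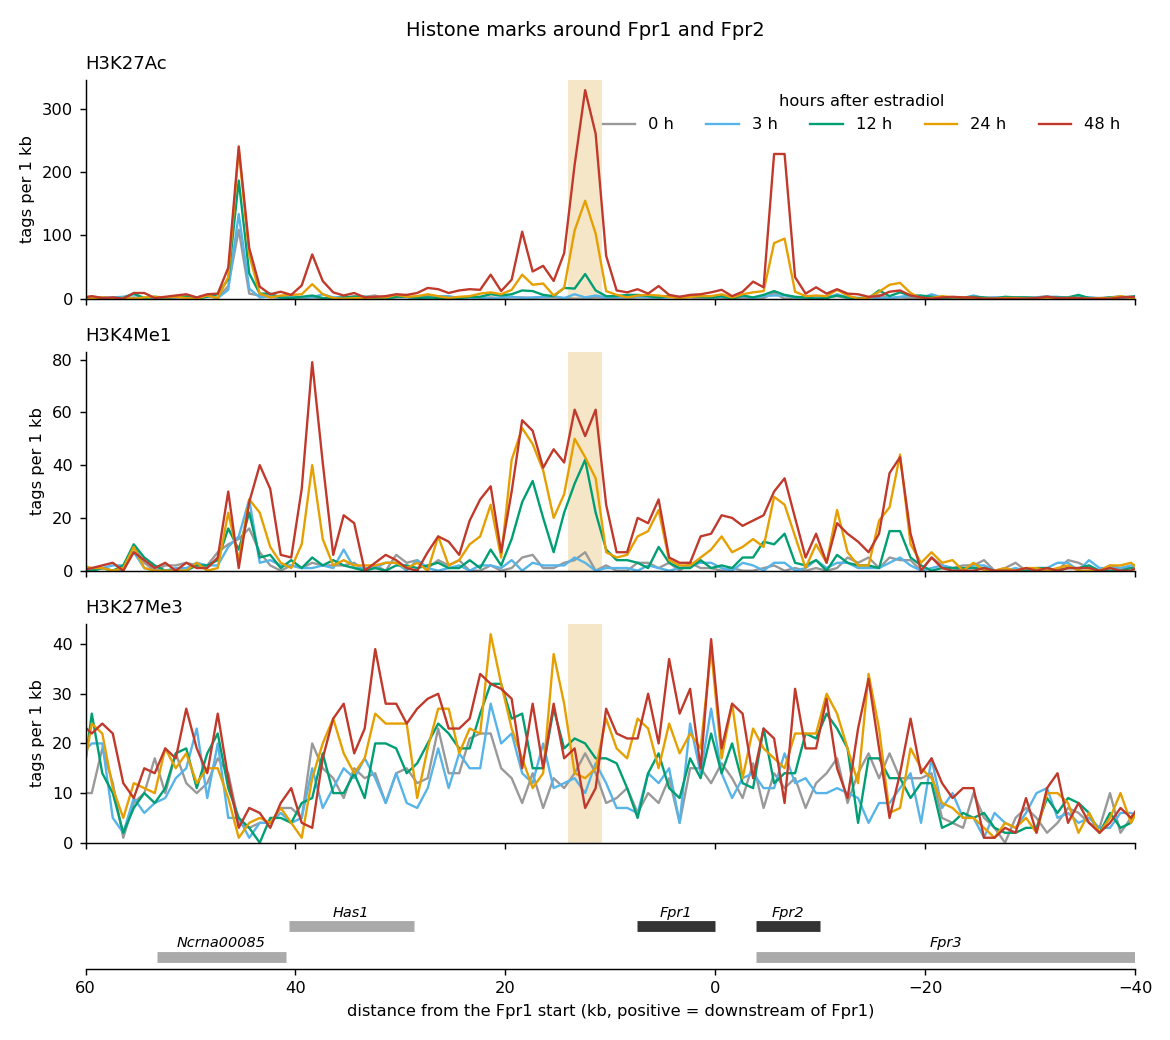
Tags per 1 kb (vertical axes) of the 3 marks against distance from the Fpr1 start in kb, with a line for each time, the +12 kb window shaded and genes drawn below. At 48 hpi, H3K27Ac stands highest in the +12 kb window with 330 tags per kb, then at the site near 45.97 kb with 241, which already stands out at 0 hpi, and then inside Fpr2 with 229.

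Regions of enriched bins were followed over the times. At 0 and 3 hpi, the only H3K27Ac region was 2 kb long and lay near 45.97 kb, inside Ncrna00085. At 12 hpi, a region of 3 kb appeared at the +12 kb window. It grew to 8 kb at 24 hpi and 12 kb at 48 hpi, chr17:17999001-18011000, with 1252 tags. The Fpr2 region followed at 24 hpi with 2 kb and reached 7 kb at 48 hpi, chr17:18024001-18031000, with 563 tags.

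At the +12 kb window, H3K4Me1 regions were wider than those of H3K27Ac from 12 hpi on. They took up 8 kb at 12 hpi, then 12 and 14 kb. At 12 hpi, H3K4Me1 was also enriched over 1 kb inside Fpr2, chr17:18027001-18028000, and over 2 kb near -17.0 kb, chr17:18037001-18039000. Both gene starts first overlapped H3K4Me1 regions at 24 hpi, and at 48 hpi a single region of 15 kb spanned them. H3K27Me3 regions covered both starts and the +12 kb window at all 5 times. The region over these sites was 120, 50, 55, 120 and 160 kb long in the order of the times, so its length did not move one way.

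Other windows kept different times. The site at 45.97 kb was marked already in pre-B cells, with 137, 163, 250, 316 and 348 H3K27Ac tags (log2 change 1.31, 1.03 to 1.60, and 0.47, 0.23 to 0.71, from 12 to 48 hpi) and 37 and 41 H3K4Me1 tags at 0 and 48 hpi. A window at -17.0 kb, inside the annotated Fpr3 gene, held 7, 6, 23, 63 and 27 H3K27Ac tags (log2 change from 12 to 48 hpi 0.19, -0.52 to 0.90). Its 24 hpi interval, 48.4 to 80.6 tags, lay above that of 48 hpi, 17.8 to 39.3. H3K4Me1 in the same window stayed high, with 11, 9, 35, 90 and 102 tags. The windows at 37.0 and 40.0 kb, over Has1, were low until 12 hpi and held 80 and 66 H3K27Ac tags at 48 hpi.

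The span holds the starts of 10 annotated genes. Besides Fpr1, Fpr2 and Fpr3, they are Has1, Ncrna00085, Gm7535, 7SK, Mir99b, AC165361.1 and Mir125a. At these other starts, H3K27Ac did not exceed 23 tags at 48 hpi. That number was reached at Has1, from 9 at 0 hpi (log2 change 1.0, 0.14 to 1.79), and from 8 at 12 hpi (1.11, 0.24 to 1.90). At Mir99b, AC165361.1, Ncrna00085 and Mir125a, whose starts lie within 615 bp of each other and share most tags, H3K27Ac went from 1 tag at 0 hpi to 18, 13, 11 and 7 at 48 hpi. The first 3 of these log2 changes were larger than that at Has1, at 1.94 (0.94 to 2.25), 1.58 (0.55 to 1.92) and 1.42 (0.36 to 1.76). The 12 hpi counts were 5, 5, 5 and 6. H3K27Me3 at the Has1 start went from 39 to 76 tags (0.88, 0.36 to 1.41).

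Since only uniquely aligned tags were kept and the receptor genes have close copies, the share of 36-base words that occur once in the genome was counted. It was 98.9% at the Fpr1 start, 91.9% at the Fpr2 start and 99.4% in the +12 kb window. Between 60 kb and -30 kb, no window was below 82.7%. Windows further than -30 kb had a median of 86.7% and a minimum of 39.7%, so fewer tags could be placed there at any time.

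The more distant members of the receptor family stayed at low tag counts. Of 7 family members, 3 were at least 2-fold higher in H3K27Ac and in H3K4Me1, namely Fpr1, Fpr2 and Fpr3, where 5.37% and 3.28% of all protein-coding starts were, and none was lower (9.34% and 9.71% of all starts). From 12 to 48 hpi, the same 3 were at least 2-fold higher in H3K27Ac and 0 lower, against 2.35% and 4.68% of all starts. Fpr1 and Fpr2 were chosen for gains of active marks at their starts, and Fpr3 is counted on the shared start. These counts of 3 are therefore set by the choice and are no result about the family. Fpr-rs3, Fpr-rs4, Fpr-rs6 and Fpr-rs7, receptors of the vomeronasal organ, held between 0 and 9 H3K27Ac tags at each of the 5 times. At least 81.6% of the words at their starts were unique. In H3K27Me3, 0 of 7 members passed 2-fold in either direction, where 1.59% of all starts were higher and 1.96% lower.

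Of 7 ligand genes, 2 were higher in H3K27Ac and 0 lower, against 5.37% and 9.34% of all starts. Camp, the gene of the cathelicidin precursor, went from 12 to 1005 tags (log2 change 5.89, 5.27 to 6.50) and had 687 by 12 hpi. Anxa1, the gene of annexin A1, went from 124 to 391 (1.62, 1.33 to 1.91) and held 745 tags in the 3 hpi library, one of the pair that stood apart. From 12 to 48 hpi, neither passed 2-fold: Camp changed by 0.55 (0.40 to 0.69) and Anxa1 by 0.17 (-0.04 to 0.38). Of the 7, 1 was 2-fold higher over that time, where 2.35% of all starts were. It was Saa1, a serum amyloid A gene named after its values were seen, with 49, 22, 11, 25 and 34 tags at the 5 times. It thus ended below its 0 hpi count (log2 change -0.47, -1.06 to 0.12, from 0 to 48 hpi, and 1.29, 0.50 to 2.03, from 12 to 48 hpi). Camp was also the ligand gene that was 2-fold lower in H3K27Me3, from 33 to 4 tags, as were 1.96% of all starts. The median H3K27Ac log2 change of the 7 was -0.19 from 0 to 48 hpi and -0.09 from 12 to 48 hpi.

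Genes of the signalling chain behind the receptors were marked from the start. Of 15, 0 were higher and 2 lower in H3K27Ac: Adrbk1, a receptor kinase, with a log2 change of -1.58 (-1.76 to -1.40), and Rac2, a small GTPase of cell movement, with -1.12 (-1.27 to -0.97). With 5.37% of all starts higher and 9.34% lower, both counts are near the background and no result about the list. From 12 to 48 hpi, Adrbk1 was still 2-fold lower (-1.10, -1.29 to -0.91) and Rac2 was not (-0.75, -0.91 to -0.60). Over that time, 1 of the 15 was lower and 0 higher, against 4.68% and 2.35% of all starts, again near the background. Tags at 0 hpi ranged from 186 to 1174 over the list. The median H3K27Ac log2 change from 0 to 48 hpi was -0.51.

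Of 8 other chemoattractant receptors, 6 were higher in H3K27Ac and 0 lower, with a median of 3.02, against 5.37% and 9.34% of all starts. From 12 to 48 hpi, 1 of the 8, C3ar1, was at least 2-fold higher, where 2.35% of all starts were, and the median was 0.41. C3ar1, a receptor of complement C3a, went from 9 to 254 tags (4.21, 3.52 to 4.85), Gpr77, the second receptor of C5a, from 16 to 321 (3.96, 3.37 to 4.55) and Ltb4r1, a leukotriene B4 receptor, from 15 to 209 (3.42, 2.81 to 4.03). At 12 hpi, they held 56, 321 and 126 tags, so their changes from then to 48 hpi were 2.09 (1.69 to 2.49), 0.0 (-0.22 to 0.22) and 0.71 (0.39 to 1.03). At 24 hpi, C3ar1 already held 224 tags. Gpr77 held 160 tags at 3 hpi and 477 at 24 hpi, more than at 48 hpi under each of 3 scalings. Ltb4r1 was highest at 24 hpi with 225 tags, but at 48 hpi after scaling to bins enriched at all 5 times. Fpr1, Fpr2 and Gpr44, a prostaglandin D2 receptor gene named after its values were seen and holding 10 tags at 48 hpi, were highest at 48 hpi under all 3, and C3ar1 was under 2 of them.

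In H3K27Me3, most of these receptors did not pass 2-fold. C5ar1, the first receptor of C5a and named after its values were seen, was the 1 of the 8 to do so, from 56 to 25 tags (log2 change -1.02, -1.64 to -0.41), where 1.96% of all starts were lower and 1.59% higher. C3ar1 went from 40 to 25 (-0.58, -1.24 to 0.07). The intervals of C5ar1 and C3ar1 lie below those of Fpr1 and Fpr2, but those of the other 6 overlap them. Gpr44 went from 42 to 61 (0.49, -0.05 to 1.03) and Ltb4r2 from 17 to 23 (0.35, -0.42 to 1.11). With 1 library each, these are differences between libraries and not between conditions.

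**Figure D5:**
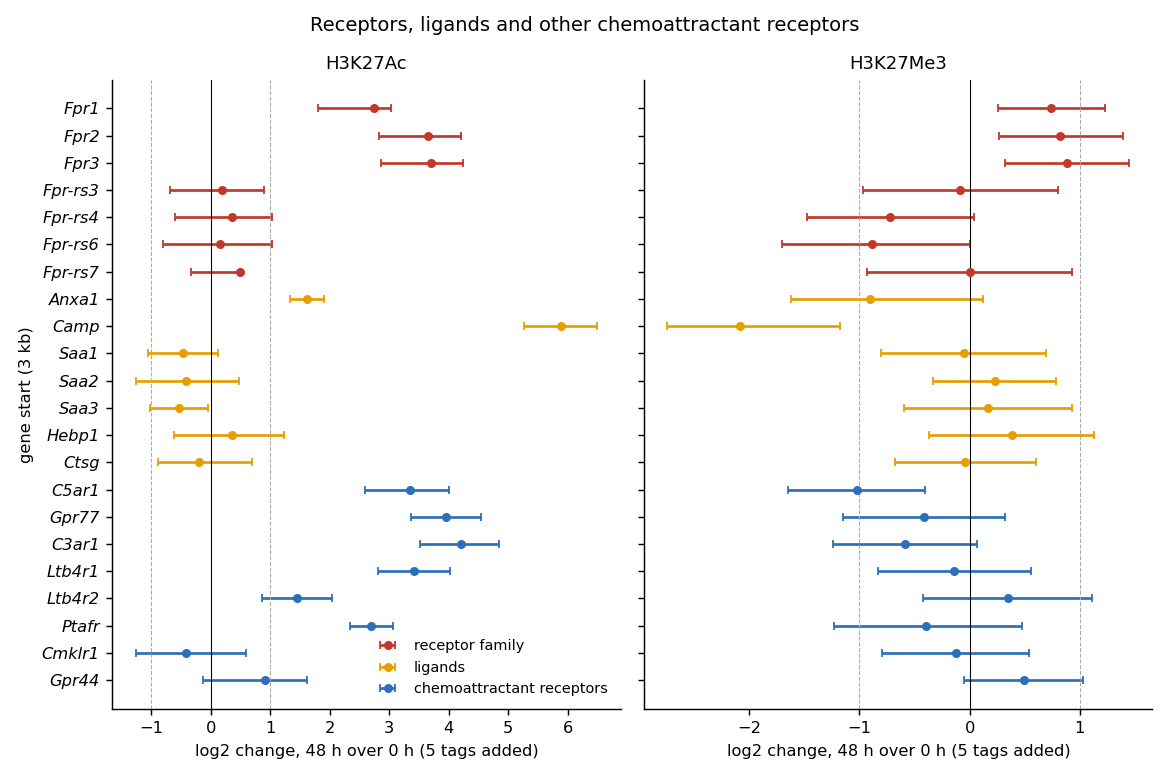
Log2 change from 0 to 48 hpi with 5 tags added (horizontal axes) of H3K27Ac and H3K27Me3 in 3 kb at the starts of the receptor family (red), ligand genes (orange) and other chemoattractant receptors (blue). Bars are 95% counting intervals and dashed lines mark 2-fold. Fpr1, Fpr2 and Fpr3, which shares the Fpr2 start, sit to the right of 0 in both panels. So do the points of Ltb4r2, Gpr44 and the ligand gene Hebp1, though their H3K27Me3 intervals hold 0. C5ar1, named after its values were seen, lies at 3.35 in H3K27Ac (0.50 from 12 to 48 hpi) and -1.02 in H3K27Me3.

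The starts most like the members were sought by the root mean square difference of log2(tags + 5) over the 10 libraries of H3K27Ac and H3K4Me1. Nearest to Fpr1 were Gm6728 (0.30), Car4 (0.34), Prss37 (0.35), Xylt1 (0.47) and Ppef2 (0.48). Car4, a carbonic anhydrase gene, went from 4 to 31 H3K27Ac tags, with 10 at 12 hpi. It went from 39 to 110 H3K27Me3 tags, so it too gained the repressive mark. Prss37 likewise went from 47 to 79 in H3K27Me3, whereas Gm6728 had 12 and 13, Xylt1 went from 10 to 8 and Ppef2 from 29 to 16.

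Nearest to Fpr2 were Fpr3 (0.03, the shared start), Sirpb1a (0.35), Olfr229 (0.36), Clec4b2 (0.51) and Aifm2 (0.52). Sirpb1a, a signal-regulatory protein gene, went from 3 to 101 H3K27Ac tags and from 1 to 75 H3K4Me1 tags. Olfr229, an olfactory receptor gene, went from 3 to 88 and from 2 to 61. At 12 hpi, Sirpb1a held 27 H3K27Ac tags and Olfr229 held 23. H3K27Me3 went from 5 to 28 tags at Sirpb1a, from 15 to 22 at Olfr229, from 23 to 56 at Clec4b2 and from 32 to 41 at Aifm2. The windows most like the +12 kb window lay nearest to Loh12cr1 (0.40), Gm17252 (0.43), Rnf149 (0.43), Slfn10-ps (0.44) and Comtd1 (0.45). In these 5 windows, H3K27Ac went from 2 to 7 tags at 0 hpi to between 448 and 677 at 48 hpi, with 60 to 128 at 12 hpi.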

How the data were processed

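ChIP-seq tags of 3 histone marks at 5 times (15 libraries, 1 each) were grouped by their GEO labels. The authors aligned reads to mm9 with Eland or Bowtie without mismatches and kept unique alignments. The deposited files hold tag positions of 36 bp without strand, not a normalized score or signal, and the authors' peak calls were not used. Deposited files differed in identical tags, so 1 tag per position was kept on chromosomes 1 to 19 and X. Tags were placed at their middle (18 bp), randomly thinned to the depth of the smallest library for that mark and counted in 3 kb around GENCODE vM1 gene starts and in 3 kb windows. Changes are log2 with 5 tags added, with exact binomial intervals; counts have exact Poisson intervals. Called means at least 2-fold. Bins of 1 kb (5 kb for H3K27Me3) were enriched at a Poisson tail below 0.001 (at least 16, 13 and 50 tags for H3K27Ac, H3K4Me1 and H3K27Me3) and joined across 1 bin. No test between times was possible. In 3 files, 2 closing lines without position were dropped. Scripts were tested on simulated counts.

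The +12 kb window is 3 kb centred on the 1 kb bin with most H3K27Ac at 48 hpi from 10 to 15 kb after the Fpr1 start. Named genes are the members, genes starting in the span, up to 3 called members of each list with the largest H3K27Ac change, and the 5 most alike starts and windows. C5ar1, Saa1, Gpr44, Ltb4r2 and Hebp1 fall outside this rule and were named after their values were seen. Members and lists were chosen with earlier results of these data known. Alternatives were other scalings, seeds, window sizes, grids, added tags, tags as deposited and, added after seeing the data, H3K27Ac changes from 12 hpi. Promoters are shown as the 250 bp before the start. Python 3.11.15, numpy 2.4.6, scipy 1.17.1, pandas 2.3.3 and matplotlib 3.10.9 were used.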

Additional observations from a re-analysis of the deposited data

How the results depend on the processing

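Of 96 values of 14 results under 9 alternatives, 76 stayed within the counting interval (counts within 1.5 times), 20 moved and 0 called values changed sign. No paired analysis was possible because 1 library stood for each group. With 1 tag added in place of 5, log2 changes of H3K27Ac were 4.17 (Fpr1 start), 4.60 (Fpr2 start) and 8.07 (+12 kb window), those of H3K4Me1 were 4.37 (Fpr1) and 5.02 (Fpr2), and 1 window was 2-fold lower in H3K27Me3. In 6 kb, H3K27Ac at Fpr2 was 5.01, H3K4Me1 at Fpr2 4.07 and H3K27Me3 at the +12 kb window 0.36. The last value changed sign and lay above the counting interval of the 3 kb value, -0.87 to 0.30. Scaled to background bins, H3K4Me1 was 3.75 at Fpr1 and 4.04 at Fpr2, the share of the H3K27Ac rise at 24 hpi 70.7%, and 12 windows were higher in H3K27Me3, a result added after seeing the data. Scaled to bins enriched at all 5 times, H3K27Ac at Fpr1 was 3.10, the 24 hpi share 34.7% and 3 windows were higher in H3K27Me3. Another thinning seed gave 3.72 for H3K4Me1 at Fpr1. Counting from 12 hpi leaves out the H3K27Ac libraries of 0 and 3 hpi and was added after seeing the data. Counted so, H3K27Ac changes were 1.51 at Fpr1, 2.07 at Fpr2 and 3.47 at the +12 kb window. The count of higher windows, 16 in place of 23, stayed within 1.5 times and did not move. The cause of these moves was not tested, except that fewer added tags enlarge the change of low counts by construction. Gene starts with 1 to 3 tags at 0 hpi limit the precision of their changes. Keeping 1 tag per position caps a 3 kb count at 3000 and lowers high counts such as 803.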

Other observations

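The 3 AP-1 matches of the +12 kb window lay at -1210 (TGACTCA), -177 (TGAATCA) and 643 bp (TGATTCA) from its centre. The 200 bp bins that hold them are local highs of H3K27Ac at 48 hpi, with 50, 99 and 103 tags. The remaining local high, 87 tags at -500 bp, holds none. This was seen after the profile was known and was not tested, and the positions of the highs are approximate. The 3 kb at the Fpr2 start holds 2 PU.1 matches, 1 of them at 138 bp from the start, and the 3 kb at the Fpr1 start holds 2 C/EBP matches. The window inside Fpr2 holds 2 C/EBP and 2 AP-1 matches.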
